A study of Mus musculus with 11 samples.

Results

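Genes for the axoneme of motile cilia and for transport into cilia were followed in lung RNA of Foxa3-/- mice (KO) and their littermate controls (called wild type, WT), challenged with OVA or with saline. OVA is, by background, the egg allergen ovalbumin, and Foxa3 is a forkhead transcription factor of airway epithelium. The genes were chosen by name: a probe was taken if its gene name in the array files starts with Dnah, Dnai, Dnal, Tekt, Rsph or Spag, or with Ift or Bbs followed by digits, and if 2 or more of the 11 arrays had it well above background. Each gene was then represented by its brightest probe. The rule was met by 44 names with 92 probes, of which 77 probes and 42 genes passed the background filter, out of 22094 genes tested. Dnai2 and Tekt3 did not pass, and 0 names in the files start with Rsph, since the arrays list radial spoke genes under older names. There were 3 KO OVA, 2 KO saline, 3 WT OVA and 3 WT saline arrays, each a 1-colour array of total RNA from lung tissue, spread over 3 slides. The labels give no strain, age, dose or day, do not say which part of Foxa3 was deleted, and do not say whether each array is a separate animal, so the p-values measure only the spread between these samples.

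Motile cilia of the airway clear mucus. They beat through dynein arms, built of heavy, intermediate and light chains, on microtubule doublets whose walls contain tektins, and the beat is tuned by radial spokes and a central pair of microtubules. Intraflagellar transport (IFT) complexes B and A carry cargo to and from the ciliary tip, and the BBSome, a coat of proteins mutated in Bardet-Biedl syndrome, moves membrane proteins along the same tracks. IFT and BBSome genes serve primary cilia of many cell types as well as motile cilia, whereas axonemal dyneins and tektins belong to motile cilia and sperm tails. The Spag names were given to sperm-associated antigens and cover unrelated proteins.

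By role the 42 genes were 20 axoneme genes, 16 transport genes and 6 other Spag genes. Of the 42, 40 lay well above background on all 11 arrays. The exceptions were Spag11 (7 arrays), an antimicrobial peptide gene of the epididymis in a multigene family, and Spag4l (2 arrays), now called Sun5. Levels below are log2 intensities with the array's 75th percentile set to 0, and differences are log2 with their standard error from limma. Levels of different probes are not compared.

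Foxa3 itself was well above background on 0 of 3 KO OVA and 0 of 2 KO saline arrays, and on 3 of 3 WT OVA and 3 of 3 WT saline arrays. Between 71.2% and 78.9% of probes were well above background on each array. The second principal component (15.8% of the variance) set the 4 arrays of slide 1 apart (34.0 to 42.3, other arrays -29.1 to -16.3), and the third (10.4%) set WT OVA 1 apart (-67.1, other arrays -8.34 to 21.1). In lung tissue, fewer cells of a type and less RNA per cell cannot be told apart.

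Ciliary axoneme and transport genes had lower levels after OVA, and the calls came from WT and from the average of the genotypes. In WT lung 7 of the 42 members fell and 1 rose (16.7% and 2.38%), against 7.92% of all genes called lower and 10.8% called higher. In KO lung 0 fell and 1 rose, against 1.79% and 6.45% of all genes (8.23% either way), while 9 members had an unadjusted p under 0.05. With the OVA effect averaged over the genotypes, which draws on all 11 arrays, 16 members fell and 1 rose (38.1% and 2.38%), against 17.7% and 18.5% of all genes. All 16 that fell were axoneme or transport genes. The median difference of the members was -0.34 in WT, -0.25 in KO and -0.29 averaged, and the median over all genes was 0.02, -0.01 and 0.01. Calls are limma's, with a Benjamini-Hochberg adjusted p under 0.05 over all genes tested. The WT count rested on single arrays: leaving out WT OVA 1 gave 19 members lower, and leaving out WT OVA 2, WT OVA 3 or any of WT saline 1, 2 and 3 gave 0, with 10 to 16 members at an unadjusted p under 0.05. In KO, 3, 2 and 4 members were lower without WT OVA 1, WT OVA 2 and KO OVA 2. Averaged, 24 were lower without WT OVA 1, and 7 to 10 without any of WT saline 1, 2 and 3, KO saline 1 and 2, WT OVA 2, WT OVA 3 and KO OVA 3. Calls over all genes, either way, moved too with 1 array left out. They went from 4142 to between 1051 and 6310 in WT, and from 1819 to between 83 and 3341 in KO. In the averaged comparison they went from 8002 to between 4961 and 8849. The highest in WT and averaged, 6310 and 8849, came without WT OVA 1. Without the 4 arrays of slide 1 no member was called in any comparison, and 10 had an unadjusted p under 0.05 averaged. A fit with slide as a block left 1 member lower in WT and 9 in the averaged comparison, with 2730 and 7423 of all genes called either way.

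The arrays of the groups were also compared for overlap. Every WT OVA array lay below every WT saline array for 17 of 42 members and above for 1, against 20.5% and 22.2% of all genes. In KO this held for 22 members and 1 member, against 24.4% and 24.4% of all genes. In both genotypes at once 11 members were lower, against 15.1% of all genes, and 1 was higher, against 16.2%. The 11 were Dnahc6, Dnahc11, Dnalc4, Tekt2, Spag6, Bbs1, Bbs2, Bbs4, Bbs7, Ift81 and Ift88.

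**Figure D1:**
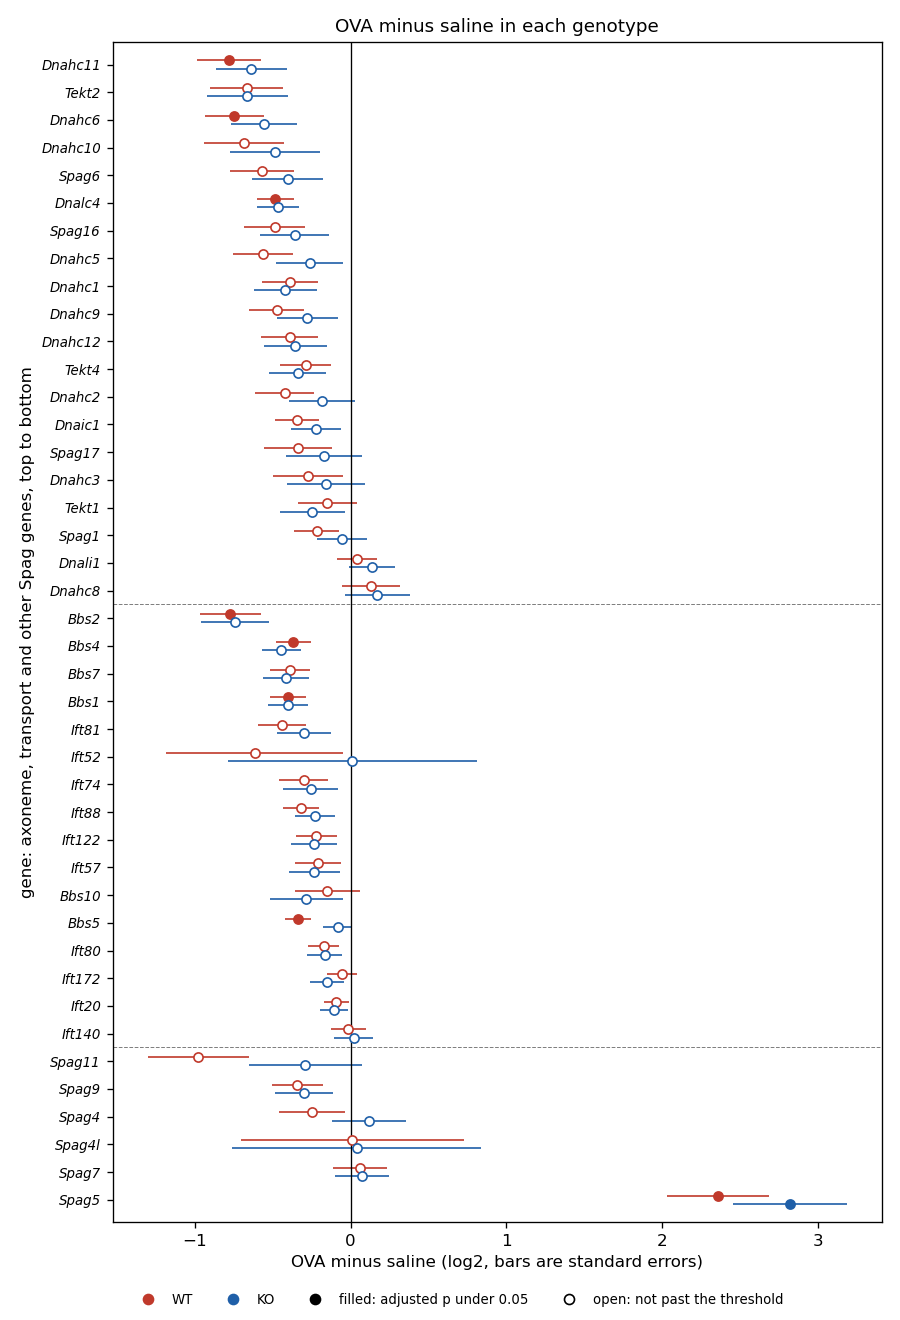
Difference between OVA and saline for each of the 42 genes (log2, bars are standard errors), WT and KO side by side, with axoneme genes on top, transport genes in the middle and other Spag genes below. In WT 18 of 20 axoneme and 16 of 16 transport genes lie below 0, in KO 18 of 20 and 14 of 16, and Spag5 stands alone at 2.36 in WT and 2.82 in KO.

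RFX factors, which drive ciliary genes, bind a promoter element called the X-box, and the members' promoters were searched for it. RefSeq promoter windows of GRCm38.p6 were found for 36 of the 42 members, and the 250 bases before each start were searched on both strands for GTNNCC, then 0 to 3 bases of any kind, then NGNAAC. Among the 31 axoneme and transport members with a window, 8 held a match (25.8%), against 5.04% of 27025 genes with a window. Of axoneme members 6 of 18 held one, and of transport members 2 of 13. Among other Spag genes Spag4l and Spag5 held one. The forkhead letters GTAAACA were in 0 of the 36 member promoters and in 3.54% of all genes. The stretches below show the 8 matches, in capitals, with up to 30 bases on either side, 5′ to 3′ on the gene's own strand. The files' Dnahc genes are now spelled Dnah. The stretches lie at chr4:126325675-126325747 (minus strand) for Tekt2, chr17:25471400-25471473 (plus) for Tekt4, chr11:66168591-66168663 (minus) for Dnahc9, chr4:41569745-41569793 (plus) for Dnaic1, chr1:69826837-69826910 (plus) for Spag16, chr3:99885178-99885252 (plus) for Spag17, chr3:36613467-36613540 (minus) for Bbs7 and chr16:49699177-49699276 (plus) for Ift57, where matches stand at 2 places. They are shown because they are the members' only matches among axoneme and transport genes.
Tekt2: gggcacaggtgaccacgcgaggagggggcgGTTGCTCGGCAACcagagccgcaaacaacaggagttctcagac
Tekt4: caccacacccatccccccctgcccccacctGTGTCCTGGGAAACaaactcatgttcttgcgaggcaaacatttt
Dnahc9: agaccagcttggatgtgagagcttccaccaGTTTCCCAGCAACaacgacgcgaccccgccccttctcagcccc
Dnaic1: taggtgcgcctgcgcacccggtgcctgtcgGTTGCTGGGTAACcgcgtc
Spag16: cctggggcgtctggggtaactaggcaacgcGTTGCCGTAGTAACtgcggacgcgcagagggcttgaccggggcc
Spag17: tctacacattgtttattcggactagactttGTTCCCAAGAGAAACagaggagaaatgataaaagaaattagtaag
Bbs7: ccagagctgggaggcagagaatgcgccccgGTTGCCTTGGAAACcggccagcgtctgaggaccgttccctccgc
Ift57: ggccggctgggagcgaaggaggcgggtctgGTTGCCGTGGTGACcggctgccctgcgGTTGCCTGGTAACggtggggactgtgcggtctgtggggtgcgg

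With the averaged OVA effect, Tekt2, Spag16 and Bbs7 fell, which is 3 of the 8 genes with an X-box match, and 12 of the 23 without a match fell. The median averaged difference was -0.34 for the 8 genes with a match (range -0.67 to -0.22) and -0.30 for the 23 without (range -0.76 to 0.15). A match is a run of letters in this window and not a measured binding site.

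Axonemal dynein heavy chains, the motor subunits of the dynein arms, were the largest role. Of 10 members, 2 fell with OVA in WT (7.92% of all genes) and 5 in the averaged comparison (17.7% of all genes). Of the 10, 0 fell in KO (1.79% of all genes), with 2 at an unadjusted p under 0.05. The median difference was -0.45 in WT, -0.32 in KO and -0.39 averaged, and 9 of 10 differences were below 0 in each genotype. Dnahc11, whose human counterpart is mutated in primary ciliary dyskinesia, had levels of -1.13, -1.89 and -1.55 on the WT OVA arrays, against -0.62, -0.77 and -0.83 on the WT saline arrays. In KO it had -1.40, -1.04 and -1.60 after OVA, against -0.63 and -0.79 after saline. Every OVA array lay below every saline array in both genotypes. The difference was -0.78 ± 0.20 in WT (1.72-fold lower, adjusted p 0.0326) and -0.64 ± 0.23 in KO (adjusted p 0.103), and -0.71 ± 0.15 averaged (adjusted p 0.00847).

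Dnahc6, an inner arm heavy chain, had levels of 0.19, -0.65 and -0.40 on WT OVA arrays, against 0.46, 0.43 and 0.49 on WT saline arrays. In KO its levels were -0.22, -0.13 and -0.34 after OVA, against 0.44 and 0.22 after saline. The groups did not overlap in either genotype. Dnahc6 differed by -0.75 ± 0.19 in WT (adjusted p 0.0306), by -0.56 ± 0.21 in KO (adjusted p 0.12) and by -0.65 ± 0.14 averaged (adjusted p 0.00906).

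Dnahc5, an outer arm heavy chain, Dnahc10 and Dnahc1, both inner arm heavy chains, fell in the averaged comparison and not in either genotype alone. Dnahc5 differed by -0.41 ± 0.14 (adjusted p 0.0499), Dnahc10 by -0.58 ± 0.19 (adjusted p 0.0428) and Dnahc1 by -0.40 ± 0.13 (adjusted p 0.0439). On WT OVA 1 Dnahc1 had a level of -2.81, inside the WT saline range of -2.92 to -2.75, while WT OVA 2 and 3 had -3.59 and -3.26. These 3 calls were the least secure of the heavy chains: each was kept in 1 or 2 of the 11 fits that left out an array. Probes of Dnahc1 disagreed as well, its dimmer probe differing by 0.33 ± 0.14 (adjusted p 0.1).

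The other heavy chain members did not pass. Dnahc9, an outer arm chain, was at -0.38 ± 0.13 averaged (adjusted p 0.0516), its dimmer probe at 0.09 ± 0.41. Dnahc8, known from sperm tails, was the only one of the 10 above 0, at 0.15 ± 0.14 (adjusted p 0.444). Dnahc12 stood at -0.37 ± 0.14 (adjusted p 0.0605), but its brightest probe lies on chromosome 1 in the files' mm7 coordinates, whereas Dnah12 lies on chromosome 14 in GRCm38.p6. On mm7 chromosome 14, the probe named Dnahc12 at 24324269 to 24324328 differed by -0.13 ± 0.08 (adjusted p 0.241). A dimmer probe of that name on chromosome 14 was at 0.10 ± 0.26 (adjusted p 0.788). The dimmer probe on chromosome 1 was at -0.36 ± 0.12 (adjusted p 0.0415 over all probes). Another entry for Dnah12 (4921531P07Rik) was at 0.08 ± 0.19, so the value under Dnahc12 is given by its name in the files only.

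Among the smaller dynein chains, Dnalc4, named Dnal4 now, fell in WT and in the averaged comparison. Its levels were 1.62, 1.32 and 1.57 on WT OVA arrays, against 2.09, 1.93 and 1.94 on WT saline arrays, and 1.53, 1.73 and 1.48 on KO OVA arrays, against 1.95 and 2.14 on KO saline arrays. The groups did not overlap in either genotype. Dnalc4 differed by -0.48 ± 0.12 in WT (1.4-fold lower, adjusted p 0.0275), by -0.47 ± 0.13 in KO (adjusted p 0.0623) and by -0.47 ± 0.09 averaged (adjusted p 0.00504). Dnali1, an inner arm light intermediate chain, was at 0.09 ± 0.10 averaged (adjusted p 0.515). Dnaic1, an outer arm intermediate chain, was at -0.28 ± 0.11 (adjusted p 0.0657). Spag1, which helps assemble dynein arms in the cytoplasm, was at -0.14 ± 0.11 (adjusted p 0.366).

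Tektins are filament proteins of the doublet wall. Tekt2 had levels of 0.88, -0.10 and 0.49 on WT OVA arrays, against 1.18, 1.01 and 1.09 on WT saline arrays. In KO it had 0.36, 0.71 and 0.23 after OVA, against 1.23 and 0.97 after saline. The groups did not overlap in either genotype, and WT OVA 1 lay closest to saline. The difference was -0.67 ± 0.23 in WT (adjusted p 0.0732), -0.66 ± 0.26 in KO (adjusted p 0.128) and -0.67 ± 0.17 averaged (1.59-fold lower, adjusted p 0.0176). Tekt1 and Tekt4 were at -0.20 ± 0.14 and -0.31 ± 0.12 averaged and did not pass (adjusted p 0.315 and 0.0768).

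Of 3 central pair genes 2 fell in the averaged comparison (17.7% of all genes), and all 3 lay below 0 in both genotypes. In WT or KO alone 0 fell (7.92% and 1.79% of all genes), with 2 at an unadjusted p under 0.05 in WT and 0 in KO. Spag6, whose current symbol is Spag6l, had levels of -0.01, -0.81 and -0.22 on WT OVA arrays, against 0.24, 0.25 and 0.18 on WT saline arrays, and -0.09, -0.16 and -0.55 on KO OVA arrays, against 0.25 and 0.02 on KO saline arrays. It differed by -0.49 ± 0.15 averaged (adjusted p 0.0366). Spag16 differed by -0.42 ± 0.15 (adjusted p 0.0498), and its dimmer probe, on mm7 chromosome 1 at 70966791 to 70966850, by 0.12 ± 0.17. The Spag16 call was kept in 1 of the 11 fits that left out an array, and the Spag6 call in 4. Spag17 was at -0.25 ± 0.16 (adjusted p 0.262).

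**Figure D2:**
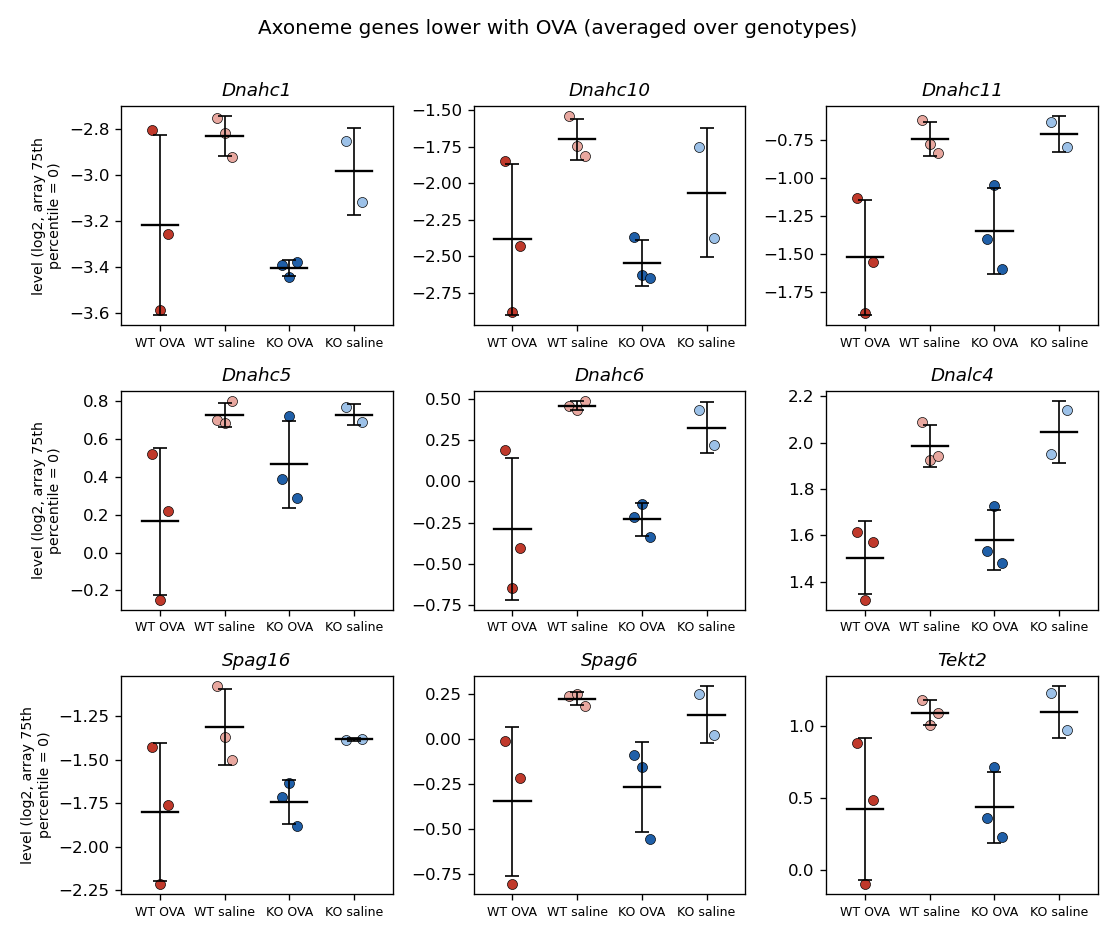
Level of the 9 axoneme genes that fell in the averaged comparison, on every array (log2, 75th percentile of the array set to 0), with lines for group means and bars for SD (n = 3, KO saline n = 2). Among the WT OVA arrays the spread is wider than among the WT saline arrays, as for Tekt2 (SD 0.49 and 0.09) and Dnahc6 (SD 0.43 and 0.03).

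The BBSome genes taken by name fell with OVA. All 5 of these subunits, Bbs1, Bbs2, Bbs4, Bbs5 and Bbs7, were called lower in the averaged comparison (17.7% of all genes), 4 of the 5 in WT alone (7.92% of all genes) and 0 in KO (1.79% of all genes; 4 of the 5 at an unadjusted p under 0.05), with a median difference of -0.39 in WT, -0.41 in KO and -0.40 averaged. A further subunit, Bbs9, was listed under an older name and stood at -0.32 ± 0.14 averaged (adjusted p 0.115). In WT the OVA arrays lay below the saline arrays for 5 of 5 subunits, and in KO for 4 of 5.

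Bbs2 showed the largest difference of the 16 transport genes. Its levels were -1.75, -2.46 and -2.25 on WT OVA arrays, against -1.39, -1.26 and -1.50 on WT saline arrays. In KO they were -2.06, -1.87 and -2.37 after OVA, against -1.25 and -1.46 after saline. The groups did not overlap in either genotype. Bbs2 differed by -0.77 ± 0.20 in WT (1.71-fold lower, adjusted p 0.0298), by -0.74 ± 0.22 in KO (1.67-fold lower, adjusted p 0.067) and by -0.76 ± 0.15 averaged (adjusted p 0.00569). Between arrays of the same slide the WT difference was -0.86, -0.49 and -0.96, and the KO difference was -0.60 and -1.12.

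Bbs4 had levels of -0.43, -0.78 and -0.53 on WT OVA arrays, against -0.16, -0.17 and -0.31 on WT saline arrays, and -0.65, -0.54 and -0.71 on KO OVA arrays, against -0.17 and -0.20 on KO saline arrays. No OVA array reached a saline array of its genotype. The difference was -0.37 ± 0.11 in WT (adjusted p 0.0489), -0.44 ± 0.12 in KO (adjusted p 0.0589) and -0.41 ± 0.08 averaged (adjusted p 0.00702). The second Bbs4 probe differed by -0.35 ± 0.13 averaged (adjusted p 0.066).

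Bbs1 differed by -0.40 ± 0.12 in WT (adjusted p 0.0423) and -0.40 ± 0.13 in KO (adjusted p 0.0831), and by -0.40 ± 0.09 averaged (adjusted p 0.00848). It is dim, with levels of -4.69, -4.73 and -4.74 on WT OVA arrays, against -4.24, -4.41 and -4.30 on WT saline arrays, and -5.01, -4.92 and -4.62 on KO OVA arrays, against -4.51 and -4.40 on KO saline arrays. Its WT difference was 0.027 when background was corrected with normexp instead. Bbs7, also dim, differed by -0.40 ± 0.10 averaged (adjusted p 0.0134), and its second probe by 0.29 ± 0.17 (adjusted p 0.212). With normexp the averaged difference was -0.10 for Bbs1 (adjusted p 0.307) and -0.030 for Bbs7 (adjusted p 0.803).

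Bbs5 was the BBSome gene whose OVA difference was furthest apart between the genotypes. In KO its levels were -0.25, -0.19 and -0.28 after OVA, against -0.22 and -0.10 after saline, and these groups overlapped. In WT they were -0.29, -0.41 and -0.31 after OVA, against 0.00, 0.02 and -0.02 after saline, without overlap. The OVA difference was -0.08 ± 0.09 in KO (adjusted p 0.596), and Bbs5 fell by 0.34 ± 0.08 in WT (adjusted p 0.0264). The difference between these effects, KO minus WT, was 0.26 (95% interval -0.02 to 0.54, unadjusted p 0.0668) and did not pass (adjusted p 1). Bbs10, a chaperonin-like protein that helps assemble the BBSome, was at -0.22 ± 0.16 averaged (adjusted p 0.321).

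Of 8 IFT complex B genes 0 fell in WT or KO alone (7.92% and 1.79% of all genes). In the averaged comparison 2 fell (25%, against 17.7% of all genes), with all 8 averaged differences below 0 (median -0.25). Of the 8, 2 had an unadjusted p under 0.05 in WT and 0 in KO. Ift88, a core subunit long known from mice with cystic kidneys, had levels of -0.69, -1.06 and -0.70 on WT OVA arrays, against -0.48, -0.46 and -0.56 on WT saline arrays. In KO they were -0.85, -0.72 and -0.77 after OVA, against -0.51 and -0.59 after saline. Ift88 differed by -0.27 ± 0.09 averaged (1.21-fold lower, adjusted p 0.0355). Ift81, which binds tubulin cargo, had levels of -0.27, -0.59 and -0.30 on WT OVA arrays, against 0.30, -0.01 and -0.13 on WT saline arrays, and -0.22, -0.16 and -0.53 on KO OVA arrays, against -0.07 and 0.06 on KO saline arrays. It differed by -0.37 ± 0.12 averaged (adjusted p 0.0346), and its second probe by -0.39 ± 0.10 (adjusted p 0.0155). For both genes the arrays did not overlap in either genotype.

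For Ift172 and Ift52 the dimmer probes fell and the brightest did not. Ift172, a large complex B subunit, had levels of 3.85, 3.69 and 3.84 on WT OVA arrays, against 3.89, 3.83 and 3.83 on WT saline arrays, and its averaged difference was -0.10 ± 0.07 (adjusted p 0.306). Its 3 other probes, on mm7 chromosome 5, fell by 0.65 ± 0.11, 0.61 ± 0.11 and 0.32 ± 0.08 in the same comparison (adjusted p 0.00367, 0.00409 and 0.0141 over all probes). These dimmer probes carry the RefSeq transcript's accession, while the brightest carries that of a clone. Ift52 had a level of -1.49 on WT OVA 1, against 0.92 and 0.82 on the other WT OVA arrays and 0.57 to 0.84 on the other arrays measured. Its spot on KO saline 1 was flagged as an outlier by the scanner software and left out of the fit. Its brightest probe differed by -0.30 ± 0.49 averaged (adjusted p 0.675), and its second probe fell by 0.33 ± 0.10 (adjusted p 0.0339).

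Ift20, a subunit also found at the Golgi, was at -0.10 ± 0.06 averaged (adjusted p 0.229), the smallest difference among the 8 complex B members. Ift80 was at -0.17 ± 0.08 (adjusted p 0.113), and its 2 dimmer probes were at 0.42 ± 0.23 and -0.01 ± 0.15. In complex A, Ift140 was at 0.00 ± 0.08 (adjusted p 0.982) and Ift122 at -0.23 ± 0.10 (adjusted p 0.103), so 0 of 2 passed, with 1 at an unadjusted p under 0.05.

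**Figure D3:**
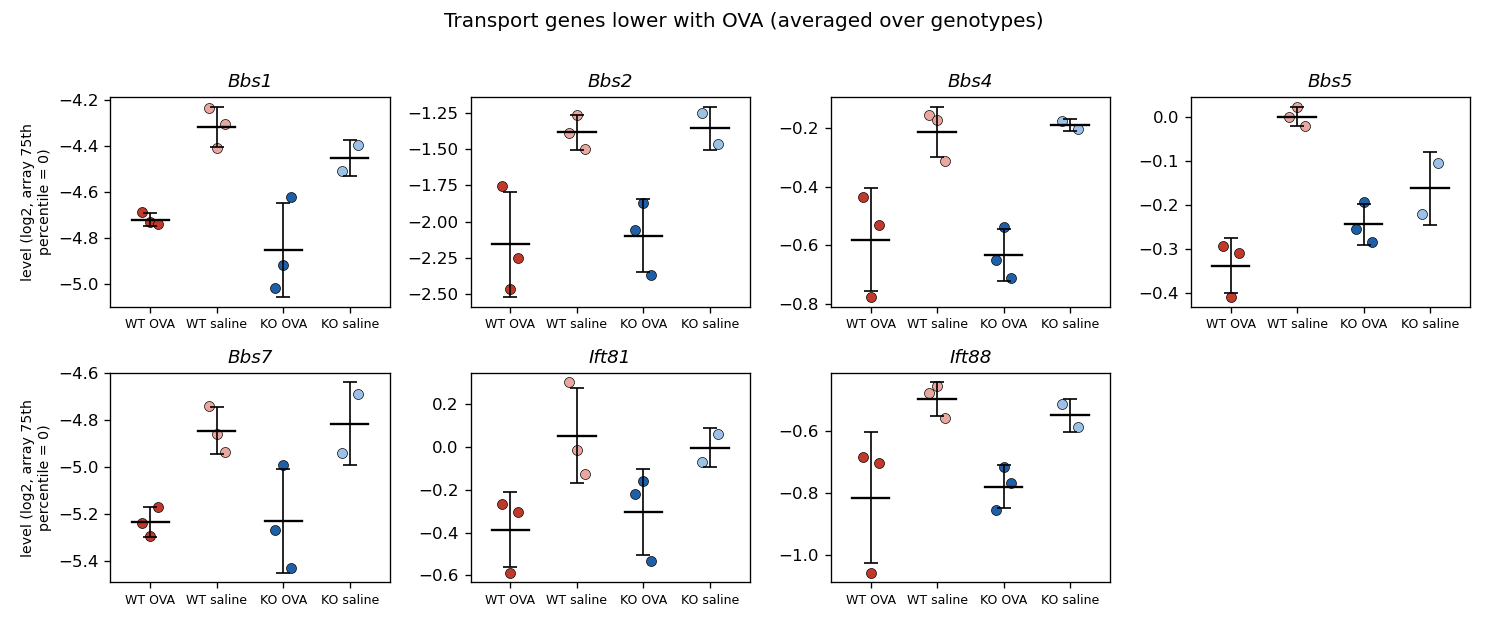
Level of the 7 transport genes that fell in the averaged comparison, on every array (log2, 75th percentile of the array set to 0), with lines for group means and bars for SD (n = 3, KO saline n = 2). For Bbs1, Bbs2, Bbs4, Bbs7, Ift81 and Ift88 the OVA arrays lie below the saline arrays in both genotypes, and for Bbs5 in WT only.

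The arrays did not fall alike. Against the WT saline mean, the median over the 20 axoneme genes was -0.06 on WT OVA 1, -0.78 on WT OVA 2 and -0.43 on WT OVA 3, and it was -0.33, -0.26 and -0.48 on KO OVA 1, 2 and 3. The WT saline arrays lay between -0.05 and 0.03, and the KO saline arrays at 0.03 and -0.11. On WT OVA 1 only 8 of 20 axoneme genes lay below the lowest WT saline array, against 19 on WT OVA 2 and 17 on WT OVA 3. The transport medians spanned a narrower range, at -0.23, -0.41 and -0.30 on the WT OVA arrays and -0.26, -0.16 and -0.28 on the KO OVA arrays. Between arrays of the same slide, the axoneme median for OVA minus saline was -0.46, -0.13 and -0.68 in WT on slides 1, 2 and 3, and -0.26 and -0.49 in KO on slides 1 and 2. The transport median was -0.21, -0.26 and -0.35 in WT, and -0.30 and -0.25 in KO. Of the 36 axoneme and transport genes, 25 were lower with OVA in all 5 of these same-slide comparisons.

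**Figure D4:**
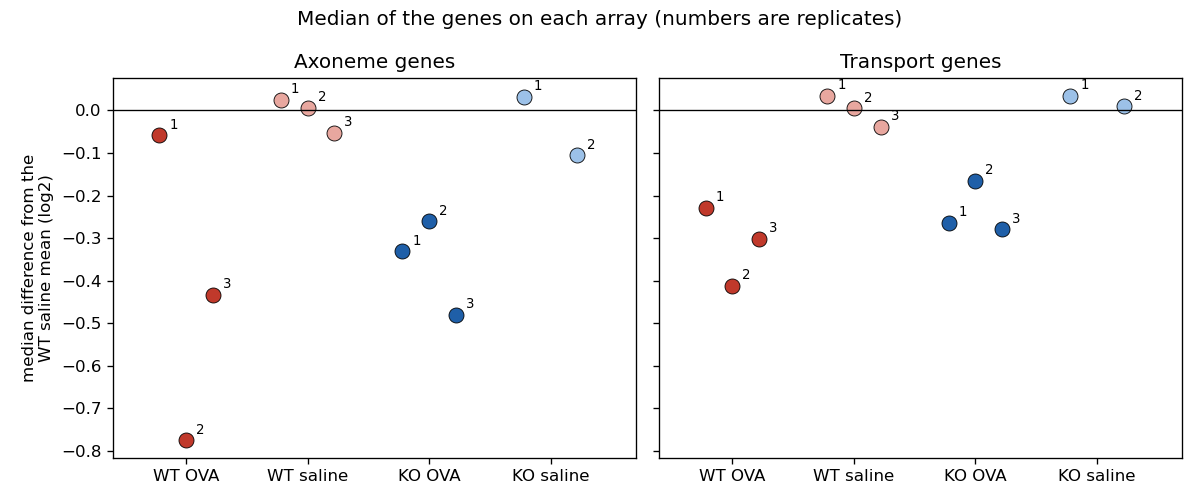
Median difference from the WT saline mean over the 20 axoneme genes (left) and the 16 transport genes (right) on each array (log2), numbered by replicate. For axoneme genes WT OVA 1 lies at -0.06, near the saline arrays, and WT OVA 2 lies lowest at -0.78, whereas the transport medians of all 6 OVA arrays lie between -0.41 and -0.16.

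Spag5 was the only member that rose. It encodes astrin, a protein of the mitotic spindle, and is no axoneme or transport gene. Its levels were -0.44, 0.42 and 0.12 on WT OVA arrays, against -2.32, -2.71 and -1.93 on WT saline arrays, and -0.19, -0.57 and 0.52 on KO OVA arrays, against -3.09 and -2.71 on KO saline arrays. The lowest OVA array lay well above the highest saline array. Spag5 rose by 2.36 ± 0.33 in WT (5.12-fold, adjusted p 0.00385) and by 2.82 ± 0.37 in KO (7.06-fold, adjusted p 0.00487), and its second probe by 2.39 ± 0.29 averaged (adjusted p 0.000845). The KO call was lost without KO saline 1 (adjusted p 0.065). Markers of cycling cells rose with it, 16 of 16 in each genotype, against 10.8% of all genes in WT and 6.45% in KO. Their median difference was 2.32 in WT and 2.86 in KO. Examples are the cyclin Ccnb1 at 2.75 ± 0.21 averaged (adjusted p 0.000159) and the survivin gene Birc5 at 2.87 ± 0.23 (adjusted p 0.000202). Their summed level (linear, array 75th percentile as 1) was 31.3 to 60.9 in WT OVA, against 6.92 to 11.1 in WT saline, and 35.4 to 68.0 in KO OVA, against 6.45 to 7.58 in KO saline.

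The other Spag genes did not pass. Spag9, a scaffold for stress kinases and vesicle motors, was at -0.32 ± 0.12 averaged (adjusted p 0.0715), but its 5 dimmer probes ran from 0.09 to 0.79. Spag4 was at -0.06 ± 0.16 and Spag7, which lacks a value on WT OVA 1, at 0.07 ± 0.12. Spag4l was not well above background on any KO array, so no difference is given for it. Spag11 was not well above background on any WT OVA array, which leaves only a bound for that group, taken as its own dim signal there. On measured means of -7.62 in WT OVA and -6.65 in WT saline, Spag11 was 1.97-fold lower, and this did not pass (adjusted p 0.0645). The estimate is uncertain and is not a smallest size of the fall.

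The comparison of genotypes asks whether loss of Foxa3 altered these genes. After OVA, 0 of 42 members differed between KO and WT, against 0.208% of all genes (0.0543% higher, 0.154% lower), and 1 member had an unadjusted p under 0.05. That member was Spag11, 1.97-fold higher in KO OVA than in WT OVA on measured means of -6.64 and -7.62 (adjusted p 0.682). The 95% interval of this difference was 0.24 to 1.71 log2, and the WT OVA arrays give only a bound. After saline 0 differed, against 0.095% of all genes (0.0272% higher, 0.0679% lower), with 0 at an unadjusted p under 0.05. The median difference of the members was 0.05 after OVA and -0.01 after saline. For 35 of the 36 axoneme and transport genes the 95% interval of KO OVA minus WT OVA lay within 1 log2 unit of 0, and the exception was Ift52. After saline this held for 34 of 36, the exceptions being Dnahc10 and Ift52. Smaller differences could not be resolved: the interval reached a median of 0.38 to either side after OVA and 0.43 after saline.

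Averaged over the challenges, 0 members differed between KO and WT (0.294% of all genes; 1 member at an unadjusted p under 0.05). The OVA effect differed between the genotypes for 0 members (0.00453% of all genes), with 0 at an unadjusted p under 0.05 and intervals reaching a median of 0.58 to either side for axoneme and transport genes. Dnahc5, Dnahc2 and Dnahc3 had the largest KO minus WT differences of the axoneme genes after OVA, at 0.30, 0.29 and 0.28, and WT OVA 2 was the lowest OVA array for all 3. Within slides, the axoneme median for KO OVA minus WT OVA was 0.06, -0.43 and 0.51 on slides 1, 2 and 3, so its sign depended on the slide.

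**Figure D5:**
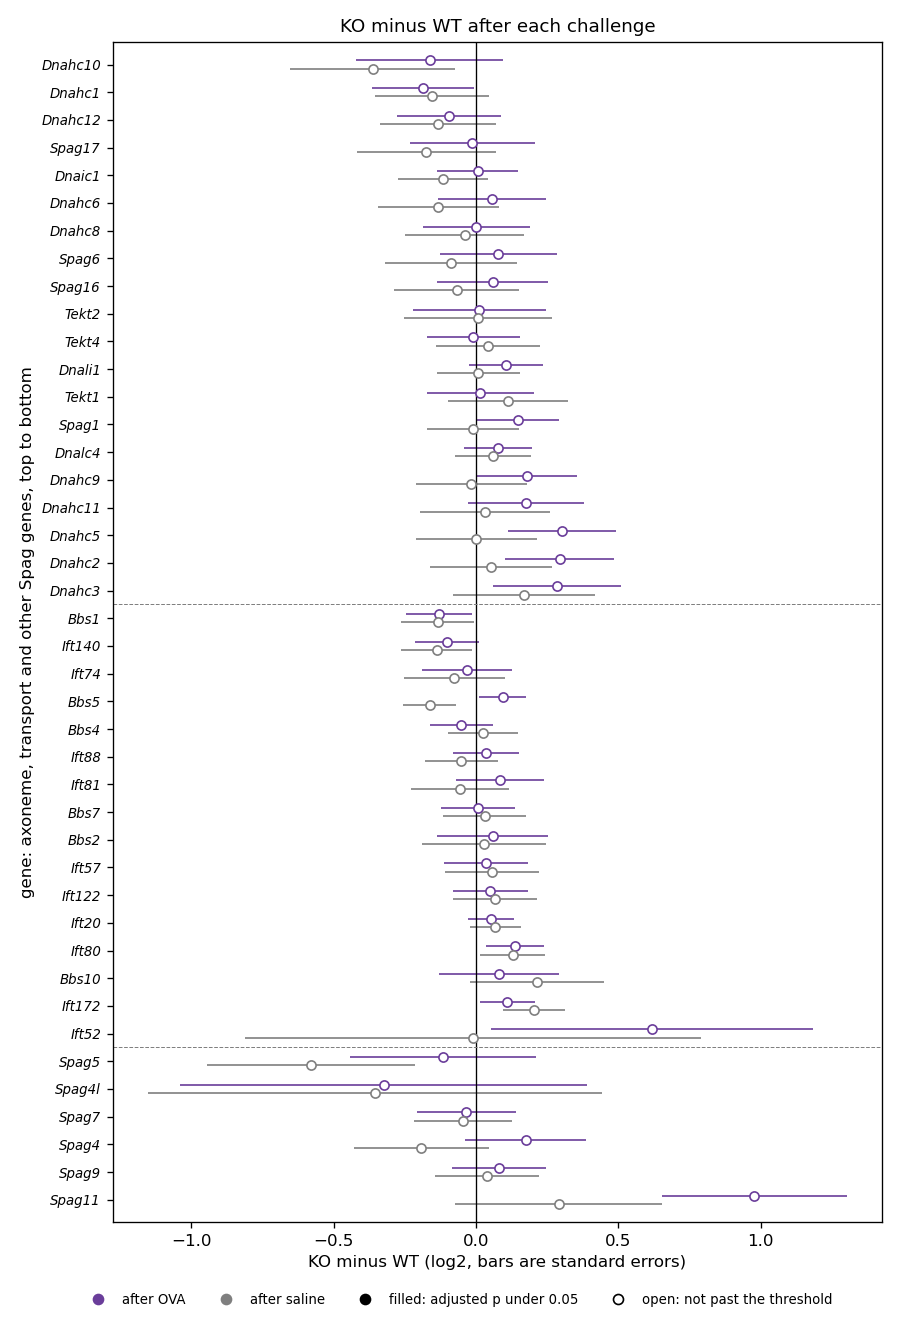
Difference between KO and WT for each of the 42 genes after OVA and after saline (log2, bars are standard errors), in the same 3 blocks of axoneme, transport and other Spag genes. No gene passes the threshold, and apart from Ift52 the differences of axoneme and transport genes lie between -0.36 and 0.30.

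Ciliary genes outside the name rule were taken from lists. Of 39 further axoneme genes 7 fell (17.9%) and 1 rose in the averaged comparison (median -0.25), a share of falls near the 17.7% of all genes. Those that fell included Cfap161 at -0.61 ± 0.16 (adjusted p 0.0184), Cfap57 at -0.55 ± 0.16 (adjusted p 0.0287) and Hydin, a central pair protein, at -0.47 ± 0.15 (adjusted p 0.0355). Of these 39 axoneme genes, 36 lay below 0 averaged. In WT or KO alone 0 of the 39 were called, against 7.92% and 1.79% of all genes called lower. Of 39 further transport and transition zone genes 10 fell and 2 rose (25.6% and 5.13%, median -0.11), against 17.7% and 18.5% of all genes. Arl3, a small GTPase that releases cargo in cilia, was at -0.44 ± 0.08 (adjusted p 0.00545), and Kif3a, the motor of outward transport, at -0.31 ± 0.07 (adjusted p 0.0116). In the other direction B9d2, of the transition zone, was at 0.38 ± 0.08 (adjusted p 0.00711). Of 13 dynein assembly and docking genes 10 lay below 0 in the averaged comparison (median -0.11). By call 0 fell, against 17.7% of all genes, and 2 rose (15.4%, against 18.5% of all genes). The risers were Dnaaf2 at 0.39 ± 0.08 (adjusted p 0.00781) and Ccdc103 at 0.24 ± 0.07 (adjusted p 0.0306).

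Ciliary regulators were not lower as a list. Of 10 measured, 1 rose and 0 fell in the averaged comparison (10%, against 18.5% of all genes, median 0.03). The riser was Ccno, which drives centriole amplification in multiciliated cells, at 1.01 ± 0.18 (adjusted p 0.00389). Foxj1, the forkhead factor that switches on motile cilia genes, was at 0.09 ± 0.27 in WT and 0.09 ± 0.30 in KO (adjusted p 0.854 and 0.876). Rfx2 and Rfx3, which bind the X-box, were at -0.25 ± 0.09 and 0.48 ± 0.20 averaged (adjusted p 0.0689 and 0.0876).

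Markers of other cell types moved with OVA beside the ciliary genes. Averaged over the genotypes, 4 of 11 markers of ciliated cells fell (Tppp3, Fam183b, Hydin, Sntn), which is 36.4%, against 17.7% of all genes. These markers share genes with the lists above, among them Hydin with the further axoneme genes and Foxj1 with the regulators. Of the 11, 10 lay below 0, with a median of -0.35. In WT or KO alone 0 of the 11 were called, against 7.92% and 1.79% of all genes called lower. Their summed level was 39.6 to 71.6 in WT OVA, against 66.6 to 76.5 in WT saline, and 49.7 to 63.4 in KO OVA, against 68.9 to 79.4 in KO saline. In the averaged comparison, where 17.7% of all genes were called lower and 18.5% higher, 5 of 8 club cell markers fell and 4 of 6 alveolar type I markers fell (medians -0.73 and -0.57). Of 6 alveolar type II markers 2 fell and 3 lay below 0 (median -0.10). Of 6 goblet cell markers 6 rose, of 8 macrophage and monocyte markers 7 rose and of 6 T cell markers 5 rose (medians 1.92, 1.99 and 0.81). Macrophage and monocyte markers summed to 269 to 298 in WT OVA, against 156 to 185 in WT saline, and to 206 to 245 in KO OVA, against 172 to 236 in KO saline. Sperm and spermatid markers were low in every group. Their sums were 0.371 to 0.631 in WT OVA, against 0.223 to 0.298 in WT saline. In KO the sums were 0.278 to 0.326 after OVA, against 0.263 to 0.35 after saline. The median difference was 0.68 in WT (0 of 5 below 0) and 0.0023 in KO (2 of 5 below 0). Of the 5, 1 rose, the protamine gene Prm1. The part of changes in cell make-up in the lower ciliary levels was not tested.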

How the data were processed

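Per the labels' protocols, total RNA was extracted on columns, amplified and labelled with Cy3. Per the file headers, Feature Extraction 9.5.1.1 made the deposited intensity values (the submitters' processing notes name version 9.1), with spot and local background intensity beside them. The deposited value table holds log2 values, used as an alternative. Its column medians, nearly equal and near 7.67, were read from the values, and the labels state no method. Probe positions are mm7.

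Each array's log2 intensities were shifted so that its 75th percentile is 0. The background filter left 32956 probes, with the brightest probe per gene name, and 22094 genes were fitted in limma 3.58.1 (R 4.3.3) with 1 mean per group, eBayes, two-sided tests and Benjamini-Hochberg adjustment at 0.05. The model was tested on simulated data. Promoters are RefSeq's for GRCm38.p6.

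Members and lists were chosen with earlier results of these data known. Named genes are members past the threshold, the largest and smallest averaged OVA difference per role, members without overlap in both genotypes, members with disagreeing probes, up to 4 genes per list by p, and Foxa3. Gene names come from the files, with current symbols by RefSeq accession, symbol or synonym. Dnahc2, Dnahc3, Ift52, Ift172, Tekt4, Spag4, Spag7, Foxj1 and the genes under older names were chosen after their values were seen. Samples with the same replicate number did not deviate together (median r -0.12 over 15 pairs of arrays), so the numbers were not taken as pairs; arrays of the same slide had a median r of 0.27. Alternatives are given with the limits. Array number limits the precision.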

Additional observations from a re-analysis of the deposited data

How the results depend on the processing

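The fall of ciliary genes kept its direction, and its counts did not hold their size. The median difference of the 42 members stayed below 0 in all 23 other settings in WT (-0.41 to -0.24), all 23 in KO (-0.31 to -0.18) and all 22 averaged. The averaged median was -0.22 with normexp, -0.33 with median scaling, -0.24 with the mean over a gene's probes, -0.27 with slide as a block and -0.25 with the authors' value table. Leaving out 1 array gave medians of -0.41 to -0.25 (WT), -0.30 to -0.18 (KO), -0.34 to -0.24 (averaged), -0.02 to 0.13 (KO against WT after OVA), -0.06 to 0.02 (after saline), -0.022 to 0.077 (over both challenges) and -0.03 to 0.20 (difference of the OVA effects).

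Members lower in WT numbered 0 to 19 with 1 array left out, 1 with slide as a block and 0 with only the groups compared (16 at an unadjusted p under 0.05). Members lower in KO numbered 0 to 4 with 1 array left out, 3 with normexp, with probes above background on all 11 arrays and with a trended robust prior, and 4 with the authors' value table; the rise of Spag5 in KO was lost in 1 such fit (0 to 1). Averaged, 7 to 24 were lower with 1 array left out, 7 without KO saline 1, 24 without WT OVA 1, 10 without the filter on dim probes and 9 with slide as a block. With replicate number as a block 10 were lower averaged and 5 in WT. Calls over all genes with 1 array left out numbered 1051 to 6310 in WT, 83 to 3341 in KO and 4961 to 8849 averaged. Bbs1 in WT reversed to 0.027 with normexp.

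Without the 4 arrays of slide 1, chosen after seeing the data, limma called 0 members in any comparison (27, 13 and 240 genes in all in WT, KO and averaged; 4, 1 and 10 members at an unadjusted p under 0.05), while the medians were -0.35, -0.27 and -0.31, and 0.060 for KO against WT over both challenges. Bbs1, Bbs2, Bbs4, Dnahc11, Dnahc6, Dnalc4 and Spag5 kept their averaged calls in all 11 fits that left out 1 array. Bbs5, Ift81, Ift88 and Spag6 each kept theirs in 4 of the 11, and Spag16 in 1. Of 11 other settings Bbs1 kept its call in 9, Bbs7 in 7 and Dnahc1 in 6. Averaged over a gene's probes, Bbs7 was at -0.054, Dnahc1 at -0.037 and Spag16 at -0.15, none of them called. With the authors' value table, Bbs1 was at -0.23 and Bbs7 at -0.20. The causes were not tested.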

Other observations

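Several ciliary genes sat on the arrays under older names that the name rule does not take in. Of the radial spoke genes, Rsph4a (listed as Rshl3), a spoke head protein, fell by 0.50 ± 0.14 in the averaged comparison (adjusted p 0.0251), and Rsph1 (Tsga2), Rsph3a (Rshl2), Rsph9 (1700027N10Rik), Rsph14 (Rtdr1) and Rsph6a (Rshl1) were at -0.15, -0.11, -0.22, 0.07 and -0.12 and did not pass. A second entry for Dnah2 (Dnhd3) fell by 0.62 ± 0.12 (adjusted p 0.00636), whereas the entry named Dnahc2 was at -0.30 ± 0.14 (adjusted p 0.131). Tekt5 (3300001K11Rik), a tektin, fell by 0.54 ± 0.13 (adjusted p 0.0117). Ift22 (Rabl5), a small GTPase of IFT complex B, was higher by 0.28 ± 0.09 (adjusted p 0.0392), while Ift27 (Rabl4) and Ift46 (1500035H01Rik) were at 0.0053 and 0.013. Of the other entries, Dnal1 (1700010H15Rik), an outer arm light chain, was at -0.53 ± 0.18 (adjusted p 0.0509), Ift43 (1700019E19Rik), of IFT complex A, at -0.31 ± 0.11 (adjusted p 0.0576), and the BBSome gene Bbs9 (E130103I17Rik) at -0.32 ± 0.14 (adjusted p 0.115). Bbs12 (Gm1805) was at -0.02 (adjusted p 0.868), Dnah17 (2810003K23Rik) at 0.22 (adjusted p 0.556) and Dnah7b (Gm107) at -0.19 (adjusted p 0.701). The entry BC061194 was at -0.50 (adjusted p 0.0653). Its current symbol is Spag6, and it is a different gene from the member named Spag6 in the files, now Spag6l.

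Of the 23 members with several probes past the filter, 15 had averaged OVA differences of a single sign and 8 had both signs.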
